A study of Mus musculus with 12 samples.

Results

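The diet by genotype interaction asks whether the difference between a high fat diet and chow was the same in cardiomyocytes labelled ApoE KO as in those labelled wild type. It was computed as the high fat minus chow difference of the ApoE KO libraries less the high fat minus chow difference of the wild-type libraries. RNA-seq read counts per gene were used from 11 of the 12 libraries of the study, and 16932 genes could be tested. Male mice of 7 to 8 weeks, either C57BL/6J or B6.129P2-Apoe tm1Unc/J (ApoE KO), were given chow (CD) or a Western diet high in fat and cholesterol (HFD) for 7 weeks, and RNA was taken from their cardiomyocytes. The libraries are called by their labels throughout: WT_CD (n = 3), WT_HFD (n = 2 used of 3), ApoeKO_CD (n = 3) and ApoeKO_HFD (n = 3). Nothing in the labels ties a replicate to its own animal, and every p-value measures only the spread between these libraries.

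Apolipoprotein E is the lipoprotein ligand through which the liver clears remnant particles, and mice that lack it have high plasma cholesterol, which a Western diet raises further. Most Apoe is made by the liver and by macrophages. The gene lies in a cluster with Apoc1, Apoc4, Apoc2 and Tomm40 on mouse chromosome 7. The name B6.129P2 records that the targeted allele was made in cells of a 129P2 strain and then carried on a C57BL/6 background. Because an interaction is a difference of differences, each gene was read in several ways. The contrast is the sum of a chow component (WT_CD minus ApoeKO_CD) and a high fat component (ApoeKO_HFD minus WT_HFD), which share no library. A positive value means more RNA in WT_CD and ApoeKO_HFD, a negative value more in WT_HFD and ApoeKO_CD.

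The used libraries held 22130323 to 46424614 counts, of which 51.5% to 71.3% fell on genes of the mitochondrial genome. The file of WT_HFD replicate 3 held 1347110 counts, and 68.5% of its counts over 3839 pairs of a coding and a non-coding gene on opposite strands fell on the non-coding gene (95% Wilson interval 68.4 to 68.7, counting error only). That share was 0.637% to 0.92% in the other 11 libraries, and this file was left out. All 10 cardiomyocyte markers were detected, with a sum of 38847 to 68219 CPM. All sums over markers are CPM scaled to the total counts of the library alone, without TMM factors. Levels of single genes are CPM scaled to library size with TMM factors, unless stated. Markers of erythroid cells summed to 0.316 to 1.62 CPM, those of adipocytes to 0.176 to 1.36 CPM. Other cell types had higher sums. Markers of pericytes and smooth muscle summed to 176 to 324 CPM, those of endothelium to 69.7 to 147 CPM and those of fibroblasts to 9.8 to 19.8 CPM.

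Apoe RNA ran against the labels in both diets. The libraries labelled WT_CD had 2.91, 2.12 and 3.61 CPM (92, 54 and 96 counts), and those labelled ApoeKO_HFD had 1.94, 3.02 and 3.16 CPM (81, 81 and 126 counts). The libraries labelled WT_HFD had 18.9 and 8.44 CPM, and those labelled ApoeKO_CD had 25.3, 23.9 and 6.93 CPM. All 6 libraries of WT_CD and ApoeKO_HFD were below all 5 of WT_HFD and ApoeKO_CD. WT_CD and ApoeKO_HFD are therefore called the low-Apoe side, and WT_HFD and ApoeKO_CD the high-Apoe side. The interaction of Apoe was −5.03 on the log2 scale (SE 0.76), with a chow component of −2.69 (SE 0.53) and a high fat component of −2.34 (SE 0.55). No p is given for Apoe, since its level chose this reading. An exchange of labels between groups was not tested. If the genotype labels of the chow groups were exchanged, the contrast called the interaction here would be the sum of the ApoE KO minus wild-type differences on each diet, and each high fat minus chow difference would compare groups of different genotype. All directions hold for the labels as given. Counts per gene do not show whether reads came from the part of the transcript that the targeted allele disrupts. The 15 macrophage markers summed to 11.5 to 23.2 CPM in WT_CD and 7.47 to 14.5 in ApoeKO_HFD, without TMM factors. Their sums were 6.51 to 22.9 CPM in WT_HFD and 9.02 to 38.4 in ApoeKO_CD. Scaled in the same way, Apoe was 2.22 to 3.45 CPM on the low-Apoe side and 8.16 to 27.2 CPM on the other. The marker sums overlapped between the sides, and Apoe did not. All 12 tested macrophage markers had an interaction below 0 (median −1.07), the same sign as Apoe. The part of these markers in the Apoe difference was not tested.

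The clearest members of the interaction were genes of chromosome 7 around Apoe, and the sequences just upstream of 5 of them are shown to place them. Each is the 250 bases before the RefSeq start (GRCm38.p6), 5′ to 3′ on the strand of the gene. Capitals mark matches, on either strand, to CCAAT (the core of the NF-Y motif) or GGGCGG (the core of the Sp1 motif); TATAAA was searched for as well.
Apoe, chr7:19699189-19699438, minus strand: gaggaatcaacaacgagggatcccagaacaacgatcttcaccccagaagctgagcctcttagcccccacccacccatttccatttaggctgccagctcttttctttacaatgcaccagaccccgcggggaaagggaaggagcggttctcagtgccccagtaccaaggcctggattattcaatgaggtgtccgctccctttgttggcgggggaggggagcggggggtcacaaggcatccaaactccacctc
Igsf23, chr7:19950744-19950993, minus strand: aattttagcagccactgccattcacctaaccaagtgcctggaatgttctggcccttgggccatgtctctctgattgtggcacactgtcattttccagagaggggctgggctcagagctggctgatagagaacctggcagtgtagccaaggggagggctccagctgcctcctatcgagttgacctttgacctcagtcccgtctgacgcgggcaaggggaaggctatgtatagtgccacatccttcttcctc
Pnmal2, chr7:16944432-16944681, plus strand: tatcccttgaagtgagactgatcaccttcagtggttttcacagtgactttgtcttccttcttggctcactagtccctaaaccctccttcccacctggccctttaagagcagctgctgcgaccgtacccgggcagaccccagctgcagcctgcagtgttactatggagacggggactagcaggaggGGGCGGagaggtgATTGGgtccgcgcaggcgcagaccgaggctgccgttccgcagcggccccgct
Blvrb, chr7:27447728-27447977, plus strand: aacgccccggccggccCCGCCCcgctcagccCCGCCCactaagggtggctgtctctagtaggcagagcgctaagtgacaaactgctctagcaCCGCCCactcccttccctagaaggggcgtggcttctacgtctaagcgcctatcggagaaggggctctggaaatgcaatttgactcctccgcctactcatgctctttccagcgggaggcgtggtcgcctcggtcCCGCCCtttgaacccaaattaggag
Zfp30, chr7:29783718-29783967, plus strand: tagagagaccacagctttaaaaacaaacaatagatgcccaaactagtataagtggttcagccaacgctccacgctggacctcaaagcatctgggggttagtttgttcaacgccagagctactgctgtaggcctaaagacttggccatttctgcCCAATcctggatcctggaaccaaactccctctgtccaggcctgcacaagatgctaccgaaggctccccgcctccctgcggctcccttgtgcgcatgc
The Blvrb window held 4 matches to GGGCGG, that of Pnmal2 held 1 match to GGGCGG and 1 to CCAAT, and that of Zfp30 held 1 to CCAAT. The windows of Apoe and Igsf23 held none of the 3 motifs. Of 32851 mouse promoter windows of this length, 33.9% held CCAAT, 32.7% GGGCGG and 12.4% TATAAA. RefSeq promoter entries were matched for 18 of the 24 called genes that the naming rule chose.

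Across all genes, 37 passed an adjusted p of 0.05 in the interaction (edgeR's quasi-likelihood test with Benjamini-Hochberg adjustment), which is 0.219% of those tested. Of these, 29 were higher (0.171%) and 8 lower (0.0472%) on the low-Apoe side, and 1389 genes (8.2%) had an unadjusted p under 0.05. Within 10 Mb of Apoe, 244 genes were tested and 14 were called, or 5.74%, with 9 higher and 5 lower. Of 1081 tested genes elsewhere on chromosome 7, 2 were called. On all other chromosomes 21 of 15607 genes were called, or 0.135%, with 19 higher and 2 lower. A fit that gave each side a single mean, so that differences between groups of the same side count as spread, called 19 genes (0.112%). All 19 were among the 37, and 14 of them lay on chromosome 7. Those 14 include Apoe, whose level defined the sides, and Gm18190, which had no counts on the low-Apoe side. In all 19 the libraries of the sides did not overlap, against 110 of all genes (0.65%), and this is in part set by the calls.

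The share of called genes fell with distance from Apoe. Within 2 Mb, 6 of 50 tested genes (12%) were called, from 2 to 5 Mb 5 of 58 (8.62%), from 5 to 10 Mb 3 of 136 (2.21%), from 10 to 20 Mb 2 of 170 (1.18%) and beyond 20 Mb none of 911. Apoe itself, whose level defined the sides, is counted in this and every other share given for genes within 2 Mb. In the same 911 genes 72 had an unadjusted p under 0.05 (7.9%), close to the 8.2% of all genes, whereas within 2 Mb the share was 44%. The sides did not overlap for 20% of the genes within 2 Mb and for 12.1% of those from 2 to 5 Mb, against 0.65% of all genes (110 of 16932). The median absolute interaction was 0.69 within 2 Mb, 0.57 from 2 to 5 Mb and 0.35 over all genes (log2). The chow and high fat components had the same sign for 64% of the genes within 2 Mb and for 50.9% of all genes. The 16 called genes of chromosome 7 spanned 22.5 Mb, from 7265498 to 29794702, with 9 before and 6 after Apoe in coordinate order. The lower end is Gm18190, which had 0 counts on the low-Apoe side and passed the filter through the other side alone. Without Gm18190, the other 15 began at Ccdc9 (16274042) and spanned 13.5 Mb, with 8 before Apoe.

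**Figure D1:**
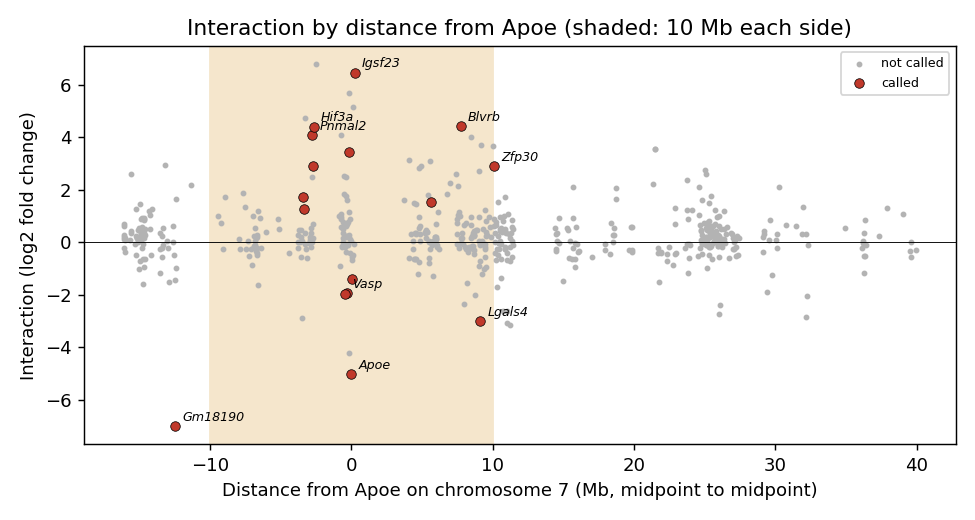
Interaction (log2 fold change) of every tested gene on chromosome 7 within the plotted distances, against distance from Apoe in Mb, midpoint to midpoint, with called genes in red and the 10 Mb on each side of Apoe shaded. Called genes lie within about the shaded span, in both directions, with Zfp30 just outside it and Gm18190 (drawn at the lower limit of the axis) farther off.

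Igsf23, an immunoglobulin superfamily gene 0.238 Mb from Apoe, had the smallest p of all genes. It had 2.59, 5.42 and 4.96 CPM in WT_CD and 5.07, 5.6 and 6.14 CPM in ApoeKO_HFD, against 0.466 and 0.579 CPM in WT_HFD and 0.619, 0.398 and 0.506 CPM in ApoeKO_CD. The low-Apoe side was 9.5-fold higher, with no overlap. Its interaction was 6.46 (SE 0.46, adjusted p = 5.29e-07): with the high fat diet its RNA fell by 3.03 on the log2 scale in the libraries labelled wild type and rose by 3.43 in those labelled ApoE KO. Over all genes 35 passed in the wild-type diet comparison (0.207%) and 12 in the ApoE KO one (0.0709%). The difference of Igsf23 between WT_CD and ApoeKO_HFD was 0.38 (SE 0.25, edgeR adjusted p = 0.505), and between WT_HFD and ApoeKO_CD 0.03 (SE 0.38, adjusted p = 1).

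Blvrb encodes biliverdin reductase B, an enzyme of haem breakdown and flavin reduction, and lies 7.75 Mb from Apoe. It had 3.07, 5.69 and 3.61 CPM in WT_CD and 5.0, 4.33 and 3.36 CPM in ApoeKO_HFD, against 0.685 and 0.868 CPM in WT_HFD and 0.9, 1.15 and 1.09 CPM in ApoeKO_CD. The sides did not overlap, and the low-Apoe side was 4.46-fold higher. Its interaction was 4.41 (SE 0.42, adjusted p = 1.86e-05 in edgeR), with components of 1.97 (SE 0.27) and 2.43 (SE 0.32).

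Pnmal2 belongs to the paraneoplastic antigen-like family and lies 2.75 Mb from Apoe. It had 6.01, 7.34 and 4.21 CPM in WT_CD and 6.41, 6.64 and 5.71 CPM in ApoeKO_HFD, against 1.12 and 1.49 CPM in WT_HFD and 1.55, 1.23 and 2.12 CPM in ApoeKO_CD. Every library of the low-Apoe side was above every library of the other side. Its interaction was 4.06 (SE 0.37, edgeR adjusted p = 1.26e-05).

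Zfp30, a zinc finger gene, lay 10.1 Mb from Apoe, just past the window. It had 8.7, 10.7 and 11.4 CPM in WT_CD and 11, 8.73 and 8.89 CPM in ApoeKO_HFD, against 3.42 and 3.99 CPM in WT_HFD and 3.26, 3.26 and 4.07 CPM in ApoeKO_CD. The sides did not overlap. Its interaction was 2.89 (SE 0.27, edgeR adjusted p = 1.26e-05), with nearly equal components of 1.53 (SE 0.18) and 1.36 (SE 0.20). Together with Ccdc8, a component of the 3M growth complex, these were the 5 genes that passed the test in the interaction and in each component.

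Trappc6a, a subunit of the TRAPP vesicle-tethering complex 0.18 Mb from Apoe, had 4.36, 4.32 and 4.1 CPM in WT_CD and 4.14, 3.4 and 2.73 CPM in ApoeKO_HFD, against 1.4 and 1.05 CPM in WT_HFD and 0.872, 0.954 and 1.49 CPM in ApoeKO_CD. The sides did not overlap, and the interaction was 3.42 (SE 0.39, edgeR adjusted p = 0.000181). Hif3a, a hypoxia-inducible factor subunit, had 0.785 to 2.92 CPM on the low-Apoe side and 0.245 to 0.548 CPM on the other. Its interaction was 4.40 (SE 0.66, edgeR adjusted p = 0.00253), and neither component passed on its own (adjusted p = 0.0617 and 0.0897). The interaction of Ccdc8 was 2.92 (SE 0.39, edgeR adjusted p = 0.000855). The interaction of Ccdc9 was 1.73 (SE 0.30, edgeR adjusted p = 0.0134), and that of Sae1, a subunit of the SUMO-activating enzyme, was 1.28 (SE 0.22, adjusted p = 0.0153). The edgeR call of Ccdc9 was lost without WT_HFD replicate 2, ApoeKO_CD replicate 2 or ApoeKO_HFD replicate 2 (adjusted p = 0.052 to 0.128), and that of Sae1 without either WT_HFD library, ApoeKO_CD replicate 3 or ApoeKO_HFD replicate 3 (adjusted p = 0.0511 to 0.243).

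Within 2 Mb of Apoe 4 called genes, Apoe included, were lower on the low-Apoe side. Bcam, a laminin receptor 0.0569 Mb away, had 53.1, 49.9 and 42.3 CPM in WT_CD and 51.1, 51.3 and 46.9 CPM in ApoeKO_HFD, against 79.4 and 76.8 CPM in WT_HFD and 74.7, 86 and 80.9 CPM in ApoeKO_CD. Its sides did not overlap, and its interaction was −1.38 (SE 0.19, edgeR adjusted p = 0.000944). Ercc2, a helicase of the transcription and repair factor TFIIH, had 3.1, 2.67 and 2.74 CPM in WT_CD and 2.18, 2.39 and 2.96 CPM in ApoeKO_HFD, against 5.62 and 4.99 CPM in WT_HFD and 4.95, 5.33 and 5.34 CPM in ApoeKO_CD. Vasp, which promotes actin filament elongation, ranged from 2.43 to 3.61 CPM on the low-Apoe side and from 5.01 to 6.47 CPM on the other. Their interactions were −1.95 (SE 0.28) and −1.97 (SE 0.28), each with an adjusted p of 0.0017 in edgeR, and neither gene's sides overlapped. Bcam, Ercc2, Vasp and Hif3a overlap annotated genes on the other strand, and Igsf23, Bcam and Ercc2 overlap genes on their own strand.

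**Figure D2:**
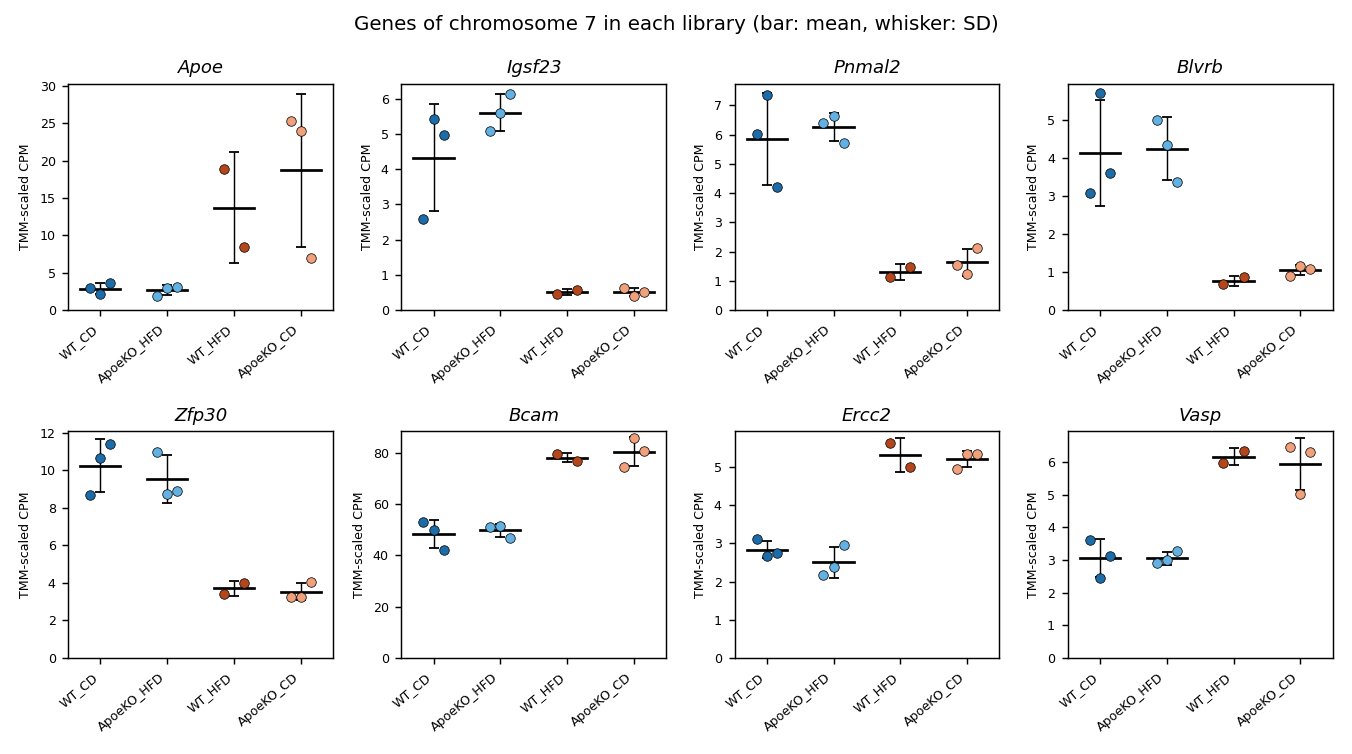
TMM-scaled CPM of 8 genes of chromosome 7 in each of the 11 libraries (points), with the mean (bar) and SD (whisker) of each labelled group. WT_CD and ApoeKO_HFD lie together and apart from WT_HFD and ApoeKO_CD, upward for Igsf23, Pnmal2, Blvrb and Zfp30 and downward for Apoe, Bcam, Ercc2 and Vasp.

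Lgals4, which encodes the sugar-binding protein galectin-4, was called but with another pattern. It had 15.1, 10.5 and 21.9 CPM in WT_CD, 6.7, 6.23 and 7.01 CPM in ApoeKO_HFD, 37.2 and 36 CPM in WT_HFD, and 22, 28.6 and 18.7 CPM in ApoeKO_CD. The chow groups overlapped, and the high fat groups lay far apart. Its interaction was −3.0 (SE 0.31, edgeR adjusted p = 6.05e-05), made up of a chow component of −0.54 (SE 0.20, adjusted p = 0.212) and a high fat component of −2.46 (SE 0.23, adjusted p = 7.18e-05). The components differed by 1.92 (SE 0.31, edgeR adjusted p = 0.0215), a difference that 17 of all genes passed (0.1%). ApoeKO_HFD was lower than WT_CD by 1.25 on the log2 scale (the fitted value was −1.25, SE 0.21, edgeR adjusted p = 0.0343).

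Of the 14 genes called within 10 Mb, 13 had sides that did not overlap, against 0.65% of all genes. In the fit with a single mean per side 12 passed, against 0.112% of all genes. Both counts include Apoe, whose level defined the sides, and are in part set by the calls. A further 6 genes of the window were not called although their sides did not overlap: Inafm1, Irf2bp1, Dmpk, Dhx34 and 2 predicted genes, with adjusted p in edgeR of 0.0957 for Inafm1 and 0.165 for Irf2bp1. In an exact permutation test over libraries (6 against 5, two-sided, log2 CPM with a prior count of 2), 10 of the 13 called genes other than Apoe reached 0.0022, the smallest p this design allows. These genes were named because they were called in the same libraries, so these p-values describe them and add no support. Apoe is counted among the 14, but it left the called set when WT_HFD replicate 1 or any single WT_CD or ApoeKO_HFD library was omitted, where its log2 value was −5.22 to −4.38. Without WT_CD replicate 2 the count within 10 Mb was 25.

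Reading the interaction by component, 86 genes (0.508%) passed in the chow component and 8 (0.0472%) in the high fat component; the latter rests on 2 WT_HFD libraries. Of the 37 genes, 5 passed in both, 26 in the chow component alone, 1 (Lgals4) in the high fat component alone and 5 in neither. The chow and high fat components had the same sign in 35 of the 37; the interaction is their sum, so this count is in part set by the calls. Within 10 Mb of Apoe 7 of the 14 called genes passed in the chow component alone, and on other chromosomes 19 of 21 did. A call in only 1 component does not show a difference. The test of that difference passed for 5 of the 37, of which 1, Lgals4, lay within 10 Mb of Apoe and 4 on other chromosomes.

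**Figure D3:**
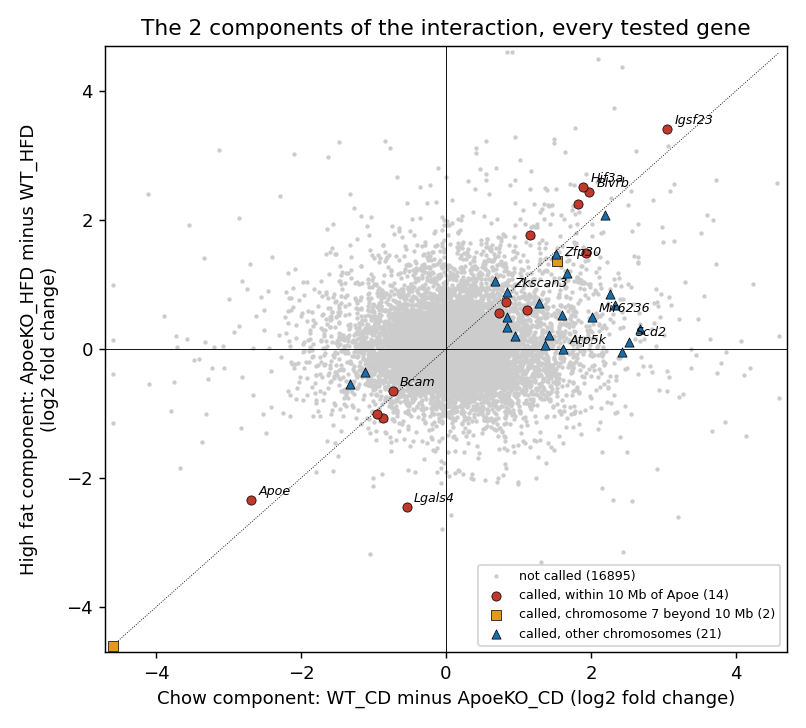
Chow component (WT_CD minus ApoeKO_CD) against high fat component (ApoeKO_HFD minus WT_HFD), both as log2 fold changes, for every tested gene, with called genes coloured by position and values beyond the axes drawn at the edge. Called genes within 10 Mb of Apoe lie near the dotted line of equal components except Lgals4, and most called genes of other chromosomes lie to the right of the centre and near a high fat component of 0.

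The called genes away from chromosome 7 included genes annotated for enzymes and mitochondrial proteins that had high counts in WT_CD. Scd2, a stearoyl-CoA desaturase and a target of the liver X receptors, had 16.8, 17.6 and 10.04 CPM in WT_CD, 6.41, 10.1 and 9.19 CPM in ApoeKO_HFD, 9.29 and 6.55 CPM in WT_HFD, and 2.81, 2.35 and 2.53 CPM in ApoeKO_CD. The ApoeKO_CD libraries were below all others, and WT_HFD, the other high-Apoe group, overlapped with ApoeKO_HFD. WT_HFD was above ApoeKO_CD by 1.62 (SE 0.25, edgeR adjusted p = 0.0443), a comparison that 2 of all genes passed (0.0118%). Its interaction was 2.64 (SE 0.34, edgeR adjusted p = 0.000648). The chow component of 2.52 (SE 0.23) exceeded the high fat component of 0.11 (SE 0.24), with an edgeR adjusted p of 0.00667 for the difference. With the diet Scd2 rose by 1.73 (SE 0.23, edgeR adjusted p = 0.00199) in the libraries labelled ApoE KO, and the value in those labelled wild type was −0.91 (SE 0.24, adjusted p = 0.168).

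Atp5k, subunit e of the mitochondrial ATP synthase, was set apart by WT_CD. It had 63.8, 65.6 and 111 CPM in WT_CD, 35.4, 24.2 and 25.1 CPM in ApoeKO_HFD, 28.1 and 28.7 CPM in WT_HFD, and 26, 25.4 and 27.2 CPM in ApoeKO_CD. The other 3 groups lay together. Its interaction was 1.61 (SE 0.29, edgeR adjusted p = 0.0181), with components of 1.61 (SE 0.19) and −0.01 (SE 0.21) that differed (adjusted p = 0.028). The edgeR call was lost without either WT_HFD library or without ApoeKO_CD replicate 1 or 2 (adjusted p = 0.0536 to 0.143).

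Lars2, the mitochondrial leucyl-tRNA synthetase, had 154, 341 and 179 CPM in WT_CD, and 56.5 to 105 CPM in the other 8 libraries. The interaction of Lars2 was 2.12 (SE 0.36, edgeR adjusted p = 0.0168), and the call was lost without WT_HFD replicate 1, ApoeKO_HFD replicate 2 or ApoeKO_HFD replicate 3 (adjusted p = 0.0525 to 0.262). Mir6236, an annotated microRNA hairpin gene, had 208, 395 and 332 CPM in WT_CD and 51.6 to 115 CPM in the other 8 libraries. Its interaction was 2.50 (SE 0.35, edgeR adjusted p = 0.00205), and ApoeKO_HFD was below WT_CD (−1.62, SE 0.23, adjusted p = 0.0156). The mature microRNA is shown because it names the gene, with the seed (bases 2 to 8) in capitals, although these libraries count reads over the hairpin gene and do not measure the mature form.
mmu-miR-6236, chr9:110281353-110281371 (GRCm38.p6), plus strand: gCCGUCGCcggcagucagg
Gm42418, a gene chosen after its values were seen because it overlaps an annotated ribosomal RNA gene on the other strand, moved with them. It had 2157 to 4317 CPM in WT_CD, 1471 to 1610.2 in ApoeKO_HFD, 1194 and 1442 in WT_HFD, and 903 to 1206 in ApoeKO_CD, with an interaction of 1.64 (SE 0.33, edgeR adjusted p = 0.0427). The edgeR call of Gm42418 was lost in 8 of the 11 fits that each left out 1 library, namely without any library of WT_HFD, ApoeKO_CD or ApoeKO_HFD (adjusted p = 0.0903 to 0.471). WT_CD replicate 2 was the highest library for Gm42418 (4317 CPM), Lars2 (341 CPM) and Mir6236 (395 CPM). Whether ribosomal RNA reads were counted in Lars2 or Mir6236 was not tested, nor was the part of Gm42418 in their values.

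Ccdc124, a ribosome-associated protein, had 22.5 to 32.8 CPM in WT_CD and 12.1 to 16.5 CPM in the other 8 libraries, with an interaction of 1.19 (SE 0.22, edgeR adjusted p = 0.0237). Tbcc, a tubulin folding cofactor, had 6.47 to 7.62 CPM in WT_CD and 3.1 to 4.71 CPM elsewhere, with an interaction of 1.35 (SE 0.25, adjusted p = 0.0271). In 6 of the 9 genes of other chromosomes that the naming rule chose, every WT_CD library was above the other 8 libraries. These genes were named because they were called in the same libraries, so this count only describes them. The share of all genes with this pattern was not counted. ApoeKO_HFD differed from WT_CD, its partner on the low-Apoe side, for 8 of the 21 genes called on other chromosomes and for 1 of the 14 near Apoe. Over all genes 26 did so (0.154%). In edgeR, the call of Ccdc124 was lost without either WT_HFD library, ApoeKO_CD replicate 2 or 3, or ApoeKO_HFD replicate 2 or 3 (adjusted p = 0.0736 to 0.301), and Tbcc without any 1 library other than WT_CD replicate 2, WT_CD replicate 3 and ApoeKO_HFD replicate 1 (adjusted p = 0.0528 to 0.301).

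Zkscan3 and Rfesd, both on chromosome 13, followed the sides as the genes near Apoe did. Zkscan3, a zinc finger repressor of autophagy genes, had 29.0, 23.9 and 22.2 CPM in WT_CD and 25.0, 27.4 and 27.4 CPM in ApoeKO_HFD, against 13.5 and 15.5 CPM in WT_HFD and 17.5, 10.1 and 14.1 CPM in ApoeKO_CD. The sides did not overlap, and the components were 0.85 (SE 0.17) and 0.88 (SE 0.19). Its interaction was 1.72 (SE 0.25, edgeR adjusted p = 0.00205). Rfesd, a Rieske iron-sulfur domain gene, had 2.67 to 4.07 CPM on the low-Apoe side and 1.46 to 2.11 CPM on the other. Its interaction was 1.73 (SE 0.34, edgeR adjusted p = 0.0358), and the call held only without WT_CD replicate 2 or 3 among the fits that left out 1 library (adjusted p = 0.0536 to 0.466 in the other 9).

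**Figure D4:**
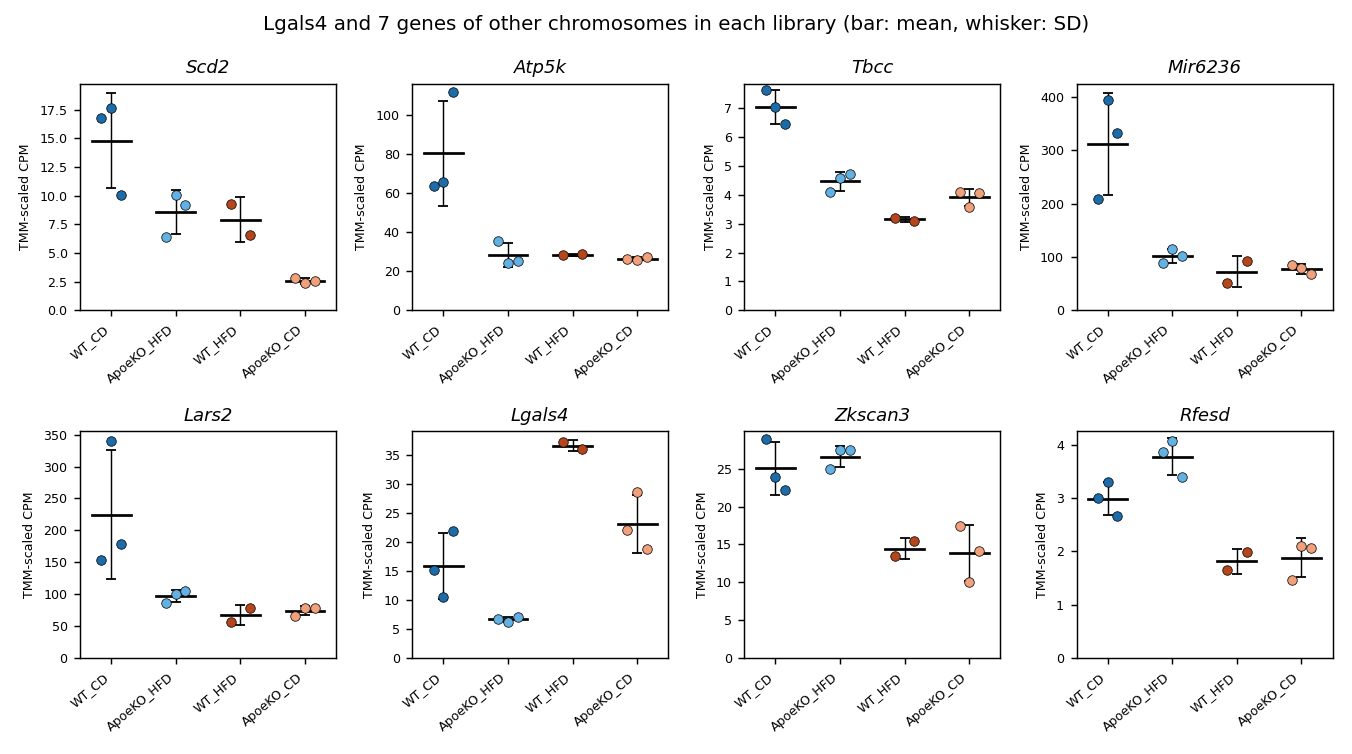
TMM-scaled CPM of Lgals4 and 7 genes of other chromosomes in each of the 11 libraries (points), with the mean (bar) and SD (whisker) of each labelled group. WT_CD stands apart for Atp5k, Tbcc, Mir6236 and Lars2, ApoeKO_CD is lowest for Scd2, the high fat groups are farthest apart for Lgals4, and the sides separate for Zkscan3 and Rfesd.

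Predicted genes and pseudogenes made up 13 of the 37 calls. Chosen after their values were seen, 3 of them are described here. Gm18190, 12.4 Mb from Apoe, had 0 counts in all 6 libraries of the low-Apoe side and 8 to 12 counts in each of the other 5. Against a floor of 3 counts over the whole side it was at least 18.3-fold lower. It passed the filter through the high-Apoe side alone, so this fold and its call describe it and add no support. It was tested in 7 of the 11 fits that each left out 1 library, and the call held in 5. Its edgeR call was lost without either WT_HFD library (adjusted p = 0.0843 and 0.124). Akt2-ps, a pseudogene on chromosome 11, had 0.877 to 1.53 CPM on the low-Apoe side and 0.164 to 0.329 CPM on the other, with an interaction of 4.28 (SE 0.62, edgeR adjusted p = 0.00185). Reads of a pseudogene cannot be told from those of its parent gene where their sequences are alike. Gm20594 had 97.5, 113 and 109.8 CPM in WT_CD and 15.3 to 48.7 CPM in the other 8 libraries, and its components of 2.68 (SE 0.26) and 0.32 (SE 0.27) differed (edgeR adjusted p = 0.0251).

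Gene lists chosen with earlier results of these data known were read by their counts and medians. The list of 20 genes of the Apoe cluster and its neighbours also held Blvrb, which lies 7.75 Mb from Apoe and does not adjoin the cluster. Of its 15 tested members 3 rose (Igsf23, Trappc6a and Blvrb) and 2 fell (Apoe and Bcam), with a median of 0.12. Of 14 tested liver X receptor targets, which export cholesterol and make fatty acids, 12 were above 0, against 8717 of 16932 genes, with a median of 0.53 against 0.02 over all genes. Scd2 rose and Apoe fell, and no other target passed. The median of the chow component of these targets was 0.65 and that of the high fat component −0.03. Among 15 lipoprotein uptake genes only Apoe was called, and the median was −0.01. Among 18 oxidative stress genes only Blvrb was called, and the median was −0.26.

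In the other 13 pathway lists no member passed the interaction test in edgeR. Members with an unadjusted p under 0.05 numbered 0 to 3 of each list. In some lists this was a larger share than the 8.2% of all genes. Examples are 3 of 20 PPAR-alpha targets, 2 of 17 hypertrophy genes and 2 of 18 clock genes. In others the count was 0, as for the 18 cholesterol synthesis genes and the 19 genes of glucose uptake and glycolysis. Of 18 cholesterol synthesis genes 7 were above 0 (median −0.10), and the desaturase Sc5d had −0.50 (SE 0.25) and the transcription factor Srebf2 0.44 (SE 0.24). Of 20 tested targets of PPAR-alpha, the fatty acid sensor, 11 were above 0 (median 0.01), with component medians of 0.40 and −0.28 and the same sign in only 2.

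Of 22 fatty acid oxidation enzymes 17 were below 0 (median −0.18), although Cpt1b, the mitochondrial fatty acid importer, had 1.39 (SE 0.45, edgeR adjusted p = 0.427) and Etfb, an electron carrier, had 1.23 (SE 0.41, adjusted p = 0.453). Of 13 proteins encoded by the mitochondrial genome 8 were above 0 (median 0.12). Of these, mt-Atp6 had 311, 105 and 107 CPM in WT_CD, 29, 247 and 68.5 CPM in ApoeKO_HFD, 45.8 and 46.2 CPM in WT_HFD, and 60, 40.9 and 53.4 CPM in ApoeKO_CD. The spread of mt-Atp6 within the low-Apoe groups was wide, and its value of 3.07 (SE 1.22) did not pass (edgeR adjusted p = 0.585). The 19 genes of glucose uptake and glycolysis had a median of 0.12, and values ran from −0.93 to 0.38. Pkm, pyruvate kinase, had 0.38 (SE 0.19).

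Clock genes had the lowest median of these lists, −0.58; 13 of 18 were below 0, with the same sign in both components for 16. Nr1d2, a clock repressor, had 15.2, 23.4 and 16.2 CPM in WT_CD, 41.4, 26.8 and 27.8 CPM in ApoeKO_HFD, 43 and 30.3 CPM in WT_HFD, and 31.7, 45.6 and 30.5 CPM in ApoeKO_CD. WT_CD was below the other groups, and the interaction of −1.17 (SE 0.32) did not pass (edgeR adjusted p = 0.272). For the immediate early genes the median was −0.36, 15 of 20 members were below 0, and the component medians were 0.47 and −0.66; Egr3 had −1.52 (SE 0.62). The transcription factor Mef2a of the hypertrophy list had −0.81 (SE 0.21, edgeR adjusted p = 0.229), and 11 of the 17 tested members of that list were below 0 (median −0.18).

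Of 22 interferon-stimulated genes 12 were above 0 (median 0.13), while the GTPases Iigp1 and Irgm1 had −1.59 (SE 0.37, edgeR adjusted p = 0.143) and −2.0 (SE 0.66, adjusted p = 0.43). Of 17 antigen presentation genes 14 were below 0 (median −0.39). Among them H2-Eb1, a class II chain, had 1.45, 0.902 and 0.902 CPM in WT_CD, 0.813, 0.634 and 0.827 CPM in ApoeKO_HFD, 2.47 and 0.779 CPM in WT_HFD, and 3.91, 2.86 and 1.01 CPM in ApoeKO_CD. The groups of H2-Eb1 overlapped between the sides, and its interaction was −2.30 (SE 0.68, edgeR adjusted p = 0.358). NF-kappaB and cytokine genes had a median of −0.33 (12 of 18 below 0), extracellular matrix genes −0.18 (15 of 19 below 0) and unfolded protein response genes −0.22 (16 of 18 below 0).

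**Figure D5:**
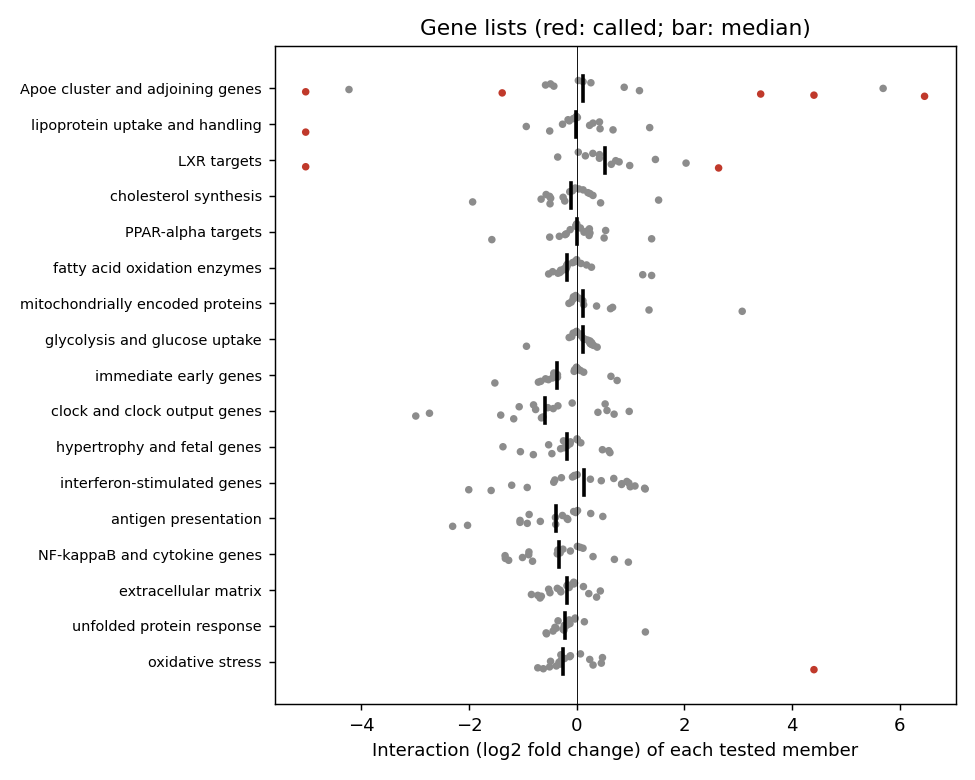
Interaction (log2 fold change) of each tested member of the 17 gene lists (points), with called members in red and the list's median as a bar. Called members appear in 4 lists, Apoe in 3 of them, and the medians of the other lists lie between −0.58 and 0.13.

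Markers of other cell types were measured beside these lists. All 12 tested macrophage markers were below 0, with a median of −1.07, and 10 of 11 atrial cardiomyocyte markers were below 0, with a median of −1.24. Also below 0 were 9 of 10 pericyte and smooth muscle markers (median −0.41) and 8 of 10 fibroblast markers (median −0.25). Of 12 endothelial markers 9 were above 0 (median 0.07), as were 5 of 10 cardiomyocyte markers (median 0.06). None was called. Summed atrial markers ranged from 77.1 to 249 CPM on the low-Apoe side and from 83.3 to 278 CPM on the other. Summed macrophage markers ranged from 7.47 to 23.2 CPM and from 6.51 to 38.4 CPM, so the sides overlapped for both sums. In bulk RNA, fewer cells of a type and less RNA per cell cannot be told apart. The part of these cells in the interaction was not tested. Without the 3 libraries low in atrial transcripts (WT_HFD replicate 2 and ApoeKO_HFD replicates 2 and 3), which leaves WT_HFD with 1 library, 11 genes were called in the interaction, 9 of them among the 37, and 5 were within 10 Mb of Apoe.

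The genes at the threshold show how near the calls lie to it. The least extreme called genes were Apoe, Gm42418 and F830016B08Rik, and just outside were Clcn4 at −0.98 (adjusted p = 0.0516), Maged2 at −1.55 (adjusted p = 0.0623) and Rhot2 at 0.91 (adjusted p = 0.0623), all in edgeR. The interaction count was 285 without WT_CD replicate 2, and 20, 23 and 22 without WT_HFD replicate 1 and ApoeKO_HFD replicates 2 and 3. With all 12 libraries it was 8.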

How the data were processed

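Per the labels' protocols, RNA came from cardiomyocytes by the Maxwell RSC simplyRNA procedure, and SMART-Seq Stranded libraries were made. Trimmomatic 0.39, STAR 2.7a and HTSeq 0.13.5 with GRCm38 (mm10) are named in the submitters' processing notes. The authors deposited whole-number counts of reads per gene, with no normalization, in 1 file per library and 55335 gene identifiers, of which 55154 matched the GENCODE vM21 annotation. Libraries were grouped by title. The column header inside the file of WT_HFD replicate 3 is the same as that of ApoeKO_CD replicate 1; the sample of each file was taken from the series record.

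These counts entered edgeR 4.0.16 (R 4.3.3) with TMM factors and filterByExpr by group. The model had 1 mean per labelled group, tested by robust quasi-likelihood; residual degrees of freedom were 7 and the common coefficient of biological variation 0.2. The fit with 1 mean per side had 9 residual degrees of freedom. P-values are two-sided and were adjusted over all 16932 genes; SE is that of the fitted log2 fold change. Groups, genes and lists were chosen with earlier results of these data known. Named genes are Apoe, all called genes within 10 Mb of it, up to 15 called genes elsewhere in each direction whose log2 CPM averaged 0 or more, and the called or 2 leading members of lists; predicted genes and pseudogenes are counted, and a few genes that the rule chose are not reported here. Alternatives used RLE factors, DESeq2 1.42.0, limma 3.58.1 voom, other filters, other totals, a replicate block, all 12 libraries and each library left out. Replicates differed by more than sampling noise (chi-square per degree of freedom 24.5 to 189.7), so none was merged.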

Additional observations from a re-analysis of the deposited data

Results flagged for a closer look

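Apoe and Gm18190 aside, each gene below passed the interaction test in edgeR. Its difference between the libraries labelled HFD and CD was not the same under the wild-type and ApoE KO labels. Apoe ran against these labels, and if the labels of the chow groups were exchanged, each of these values would compare groups of different genotype. The log2 changes with diet in these genes are given as wild type, then ApoE KO, and then the interaction.

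Near Apoe, Igsf23 had −3.03 and 3.43 (6.46), Pnmal2 −2.15 and 1.91 (4.06), Blvrb −2.39 and 2.02 (4.41), Trappc6a −1.81 and 1.61 (3.42), Ccdc8 −1.78 and 1.14 (2.92), Hif3a −1.89 and 2.51 (4.40), Ccdc9 −1.19 and 0.54 (1.73) and Sae1 −0.83 and 0.45 (1.28). Those with the opposite sign were Bcam with 0.69 and −0.69 (−1.38), Ercc2 with 0.90 and −1.05 (−1.95), Vasp with 1.01 and −0.96 (−1.97) and Lgals4 with 1.21 and −1.79 (−3.0). Apoe had 2.24 and −2.79 (−5.03), given as a description because its level defined the sides. Farther along chromosome 7, Zfp30 had −1.46 and 1.43 (2.89). Gm18190 had 0 counts on the low-Apoe side, so its fitted interaction of −12.67 depends on the prior count and is no bound. It passed the filter through the other side alone, so its call adds no support.

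On other chromosomes, Scd2 had −0.91 and 1.73 (2.64), Zkscan3 −0.79 and 0.93 (1.72), Rfesd −0.72 and 1.01 (1.73), Akt2-ps −2.40 and 1.88 (4.28), Tmem181b-ps −0.87 and 1.13 (2.01) and Gm20594 −1.76 and 1.24 (3.0). Mir6236 had −2.11 and 0.39 (2.50), Lars2 −1.74 and 0.38 (2.12), Atp5k −1.50 and 0.11 (1.61), Ccdc124 −1.08 and 0.10 (1.19), Tbcc −1.16 and 0.18 (1.35), Gm1840 −2.08 and 0.76 (2.84), Gm42418 −1.14 and 0.50 (1.64) and AC132253.9 1.30 and −0.18 (−1.48). F830016B08Rik had 1.00 and −0.86 (−1.86). In the edgeR fits that each left out 1 library, the call of F830016B08Rik was lost in 9 of 11, kept only without WT_CD replicate 2 or ApoeKO_CD replicate 1 (adjusted p = 0.0551 to 0.353 where lost). That of AC132253.9 was lost in 7, namely without WT_CD replicate 1, ApoeKO_CD replicate 2, or any library of WT_HFD or ApoeKO_HFD (adjusted p = 0.0524 to 0.0804). Akt2-ps, Tmem181b-ps, Gm20594, Gm1840, Gm42418, AC132253.9, F830016B08Rik and Gm18190 were chosen after their values were seen.

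In the library left out, WT_HFD replicate 3, 68.5% of the counts over pairs of overlapping genes fell on the non-coding gene, a signal that the other libraries did not show.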

How the results depend on the processing

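The interaction called 37 genes, or 36 with RLE factors, 39 with a minimum of 50 counts in 3 libraries and 36 without mitochondrial totals. It called 92 with DESeq2 (64 higher and 28 lower), 72 with voom, 105 with no filter (44 higher and 61 lower), 8 with all 12 libraries, 11 without the 3 libraries low in atrial transcripts, and 20 to 285 without 1 library each. At 1 mean per side the count of 19 was 36 with DESeq2, 30 with voom, 59 with no filter, 8 with all 12 libraries and 14 to 21 without 1 library each. The chow component's 86 became 434 with DESeq2, 475 with no filter, 3 with all 12 libraries, 57 without the atrial-low libraries and 37 to 1801 (without ApoeKO_CD replicate 3 and without WT_CD replicate 2). The high fat component's 8 became 28 with DESeq2, 39 with voom, 49 with no filter, 1 with all 12 libraries, 1 without the atrial-low libraries, and 4 to 20. The 14 calls near Apoe became 3 with all 12 libraries, 5 without the atrial-low libraries, 6 within 2 Mb, 11 within 5 Mb, 16 within 20 Mb and 12 to 25 without 1 library each. The median of all list members, −0.08, was 0.10 with all 12 libraries and −0.19 to −0.02 otherwise. The cause of these shifts was not tested, other than that the smaller windows and the fits without libraries hold fewer genes or samples.

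Of the 24 called genes that the naming rule chose, 24 kept their call under DESeq2, 23 under RLE factors, 23 under voom, 22 with no filter, 5 with all 12 libraries, 7 without the atrial-low libraries and 16 to 23 without 1 library each; none changed sign in any of these fits. Of 15 pairs of libraries with the same replicate number, 1 correlated above 0.1 (range −0.201 to 0.197), and 3 of 11 libraries correlated best with their own number. These correlations used deviations from the means of small groups, where the deviations offset each other, so they cannot exclude pairing. With the replicate number as a block, 27 genes were called in the interaction, 25 of them among the 37, and 17 of the 24 genes the rule chose kept their call. Depth limits low genes such as Gm18190, where 8 to 12 counts carry the difference.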
